A study of Mus musculus with 4 samples.

Results

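The miR-297, miR-466, miR-467 and miR-669 families are mouse miRNAs whose mature sequences are rich in alternating U and G or alternating A and C. Members were chosen by name alone, as every mature miRNA in the deposited table with 1 of these 4 family numbers, whatever its letter or arm. Of the 389 mature miRNAs in the table, 19 met this rule: 8 of the miR-466 family, 3 of the miR-467 family and 8 of the miR-669 family. The miR-297 family had 0 entries. Entries with identical values in all 4 libraries may hold the same reads and were counted once, which left 14 members.

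Small RNA had been sequenced from the exosome fraction of medium conditioned by C8-D1A cells, an established mouse astrocyte line with the genotype WT. The control group had 2 libraries from cells kept at 37 °C, for 8 h by the sample labels and for 2 h by the culture methods. The heat stress group had 2 libraries from cells held at 42 °C for 2 h and rewarmed at 37 °C for 6 h. The libraries of each group are described as biological replicates, and the question was which exosomal miRNAs differ after heat stress.

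Each value is a normalized signal and a whole multiple of its library's smallest value, here called a step (all values within 0.01 of a step). Taking 1 step as 1 read, control libraries 1 and 2 held 43675 and 95020 miRNA reads, and heat stress libraries 1 and 2 held 100933 and 63338. A miRNA at 0 may therefore have gone undetected at up to 3 reads, which is a value of 4.06 in control library 1, 2.35 in control library 2, 2.37 in heat stress library 1 and 3.00 in heat stress library 2. These limits, like the intervals given for shares, cover counting error only. Values are not divided by length, as mature miRNAs have nearly the same length.

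The astrocyte-associated miR-9-5p had a value of 122 in control library 1, 0 in control library 2, 138 in heat stress library 1 and 48.0 in heat stress library 2. Its other arm, miR-9-3p, had 56.9, 0, 4.74 and 0 in the same order. Both arms were thus at 0 in control library 2. Values are relative to the other miRNAs of a library, so that a change in the amount of a miRNA and a change in the others cannot be told apart.

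A mature miRNA guides a silencing complex to messenger RNAs that pair with its seed, the bases near its 5′ end. Most hairpins of these families lie in a large cluster inside an intron of Sfmbt2, an imprinted gene that encodes a Polycomb group protein and is known for its expression in the placenta and early embryo. The hairpins arose by repeated duplication, so that many members have near-identical copies and a read may match several of them.

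In the GENCODE M21 annotation of the GRCm38 build, 81 hairpins carried a name of the 4 families, and 71 of them lay in introns of Sfmbt2, on the strand of that gene. These 71 stretched from 10466663 to 10518279 on chromosome 2, within the gene's span of 10370510 to 10595253. They comprised 5 of 6 miR-297 hairpins, 23 of 28 miR-466 hairpins, 14 of 17 miR-467 hairpins and 29 of 30 miR-669 hairpins. By name, 14 of the 19 mature miRNAs had all their hairpins inside Sfmbt2, whereas 5 had a hairpin elsewhere. The build behind the deposited table is not given in the sources used here, and positions were joined by hairpin name.

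**Figure D1:**
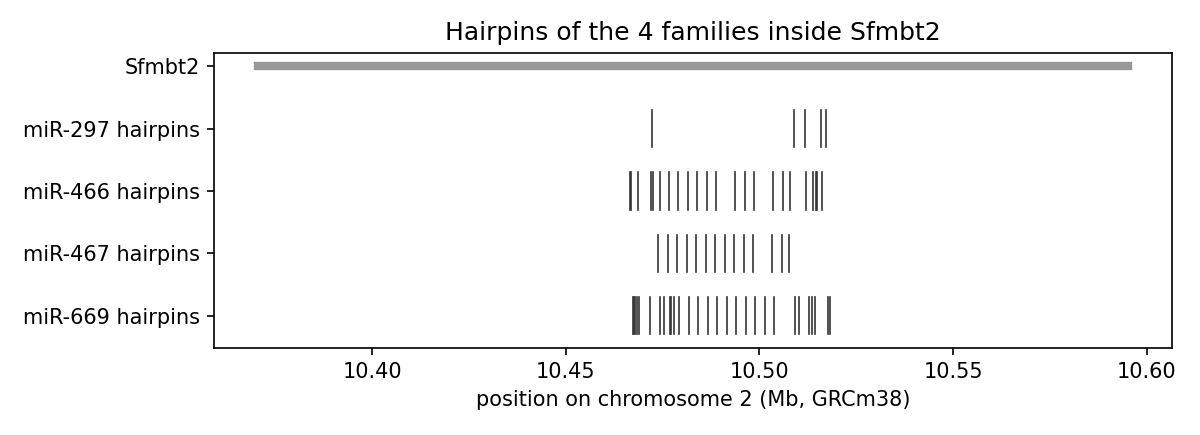
Positions of the 71 hairpins inside Sfmbt2 on chromosome 2 (x axis, Mb, GRCm38), 1 row per family, with the grey bar marking the span of Sfmbt2. The hairpins sit in the middle of the gene, and those of the 4 families are interspersed.

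The most abundant member was miR-669c-5p, from a single hairpin at 10509296 to 10509404 on chromosome 2 in an intron of Sfmbt2. Its values were 244 and 192 in control libraries 1 and 2 against 300.3 and 131 in heat stress libraries 1 and 2. On these values heat stress library 1 was the highest and heat stress library 2 the lowest, so the control libraries lay between them and the groups overlapped. As a share of the miRNA signal, control library 1 was the highest (0.412%, against 0.376% in heat stress library 1). Heat stress library 2 was the lowest there too, and the groups again overlapped. The means of the values were 218 ± 36.9 in the control group and 216 ± 120 in the heat stress group (SD, n = 2). In the limma fit the log2 change was -0.12 with a standard error of 0.92, an unadjusted p of 0.899 and a Benjamini-Hochberg adjusted p of 0.984. It ranked 38, 44, 36 and 56 among the miRNAs of the 4 libraries.

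The second most abundant member was miR-466i-5p, whose hairpin lies outside the cluster, at 17747473 to 17747593 on chromosome 13, in an intron of Cdk13 on the opposite strand. It had 61.0 and 9.39 in control libraries 1 and 2 against 126 and 133 in heat stress libraries 1 and 2. Both heat stress libraries were above both control libraries, and the control libraries were much further apart than the heat stress libraries. Taking a step as 1 read, the control values came from 45 and 12 reads and the heat stress values from 159 and 133. The means were 35.2 ± 36.5 and 129 ± 5.28 (SD, n = 2), a ratio of 3.68, and the closest pair of libraries from different groups differed by a factor of 2.06. The limma log2 change was 2.36 with a standard error of 1.17, an unadjusted p of 0.0995 and an adjusted p of 0.686, so the member was not past the threshold (a change over 2-fold and an unadjusted p below 0.05).

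The size of this difference depended on which control library it was measured against. Without control library 1 the log2 change was 3.65 (limma unadjusted p = 0.00617), and without control library 2 it was 1.07 (unadjusted p = 0.0414). With limma's trended variance prior, the unadjusted p was 0.00336 and the adjusted p 0.177, and with a pseudocount of 5 these were 0.0124 and 0.462. The unadjusted p was 0.363 without heat stress library 1, 0.375 without heat stress library 2, 0.146 with a pseudocount of 0.1 and 0.136 with scaling by library totals. It was 0.0814 with no filter on low values and 0.0795 for miRNAs averaging 10 or more. Of the opposite arm of that hairpin, miR-466i-3p, the value was 3.00 in heat stress library 2, which is 3 steps, with 0 in the other 3 libraries.

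The third most abundant member was miR-669h-5p, from a hairpin at 10518155 to 10518279 at the end of the cluster. It had 0 and 46.2 in control libraries 1 and 2 against 28.4 and 0 in heat stress libraries 1 and 2. Each group thus had 1 library with signal and 1 at 0, and the groups overlapped. The limma log2 change was -0.34 with a standard error of 2.50, an unadjusted p of 0.897 and an adjusted p of 0.984. Without control library 2 it was 2.44, and without heat stress library 2 it was 2.10, so the sign rested on 1 library at a time.

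There were 2 further members above 0 in 2 or more libraries. MiR-466f-3p, which has 3 hairpins in Sfmbt2 and 1 on chromosome 13, had 4.06 and 18.8 in control libraries 1 and 2 against 3.16 and 12.0 in heat stress libraries 1 and 2. Replicate 2 was the higher library in each group, and the groups overlapped. MiR-467c-5p, from a hairpin at 10473931 to 10474027 in the cluster, had 0 and 7.82 in the control libraries and 2.37 and 0 in the heat stress libraries. Its value in heat stress library 1 came from 3 steps, and its groups also overlapped.

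The remaining 9 of the 14 members were above 0 in a single library, which was a heat stress library each time. Of these, 5 were detected in heat stress library 1 and 4 in heat stress library 2, and 0 in both. The pair miR-467a-5p and miR-467b-5p had the highest value among them, at 60.9 (77 steps) in heat stress library 1 and 0 in the other 3 libraries. The pair miR-466m-5p and miR-669m-5p had 20.0 (20 steps) in heat stress library 2 and 0 elsewhere. In these 2 pairs, signal far above the limit of detection in 1 heat stress library went with a value of 0 in its replicate.

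The other 7 single-library members had lower values. In heat stress library 1, the pair miR-669a-5p and miR-669p-5p had 11.1, miR-466h-5p had 9.48, miR-466g had 5.53, and the pair miR-669o-5p and miR-466h-3p had 0.790, which is 1 step. In heat stress library 2, miR-466i-3p had 3.00, the pair miR-466j and miR-669f-5p had 2.00 and miR-669n had 1.00. The last 3 and the pair at 1 step were within 3 reads, so that their absence elsewhere was not informative at this depth.

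Detection in 1 library was common across the table. Among the 370 miRNAs outside the families, 133 (35.9%) were above 0 in a single library, against 9 of 14 members (64.3%), or 14 of 19 (73.7%) with every entry counted. Entries numbered 1000 and above, whose mean values were as low (median 2.63, against 2.66 for the members and 6.08 for all 370), were above 0 in a single library in 65 of 118 cases (55.1%), 31 of them in a control library and 34 in a heat stress library. Of the 133, 58 were detected in a control library and 75 in a heat stress library, whereas the 9 members were all in heat stress libraries. The same held for the mouse entries from miR-690 to miR-721, of which 3 of 10 were above 0 in a single library, a heat stress library each time. Control library 2 was deeper than heat stress library 2, and control library 1 was the shallowest of the 4. The members detected numbered 3 and 5 in control libraries 1 and 2 against 10 and 7 in heat stress libraries 1 and 2. Over the whole table, 223 and 223 miRNAs were detected in the control libraries and 250 and 270 in the heat stress libraries, so more miRNAs of any kind were detected in both heat stress libraries. No test was made of this difference.

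Identical values alone do not show that reads were shared. The pair at 60.9 and the pair at 20.0 were the only entries of the table with those values. The values of miR-466j and miR-669f-5p were also those of let-7b-3p, miR-7020-5p and miR-7040-5p, which are not members. The hairpin of miR-466j is on chromosome 10 and that of miR-669f-5p in Sfmbt2. The values of miR-669a-5p and miR-669p-5p were also those of miR-652-3p and miR-7648-3p, which are not members, and the pair at 1 step had its values in common with 15 other miRNAs, for a total of 17 entries. The sources used here do not say how a read that matched several members was counted, so the values of near-identical members are uncertain.

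**Figure D2:**
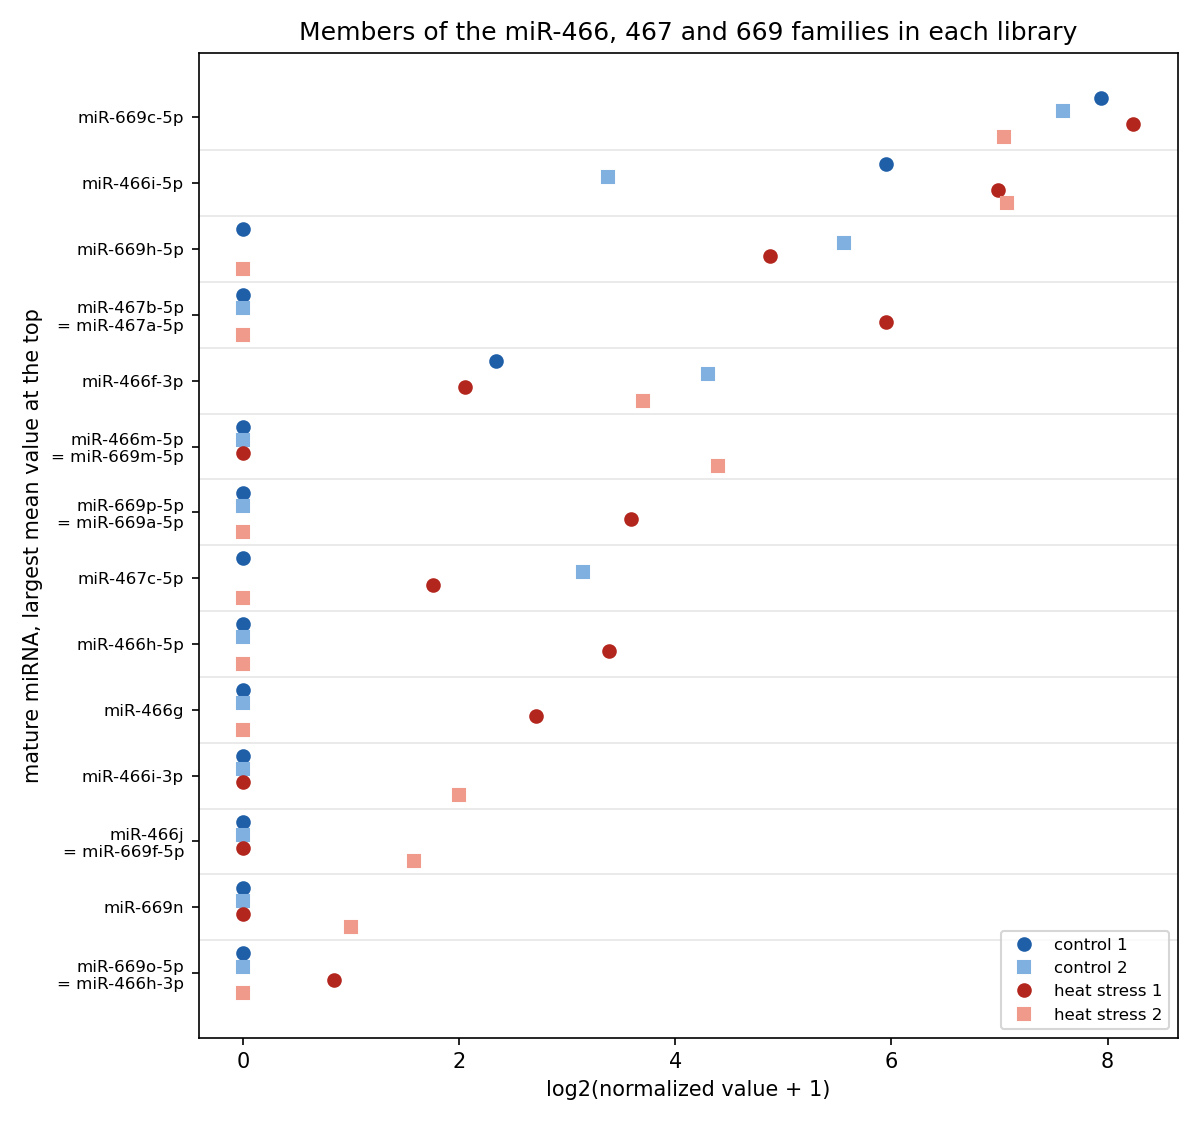
Value of each of the 14 members in each library, as log2(normalized value + 1) on the x axis, with 1 row per member and members of identical values on 1 row. Blue symbols are control libraries and red symbols heat stress libraries, circles replicate 1 and squares replicate 2; only miR-466i-5p has both red symbols to the right of both blue symbols.

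The values were compared between heat stress and control as log2(value + 1) with limma, over the 313 miRNAs whose values averaged 1 or more. Of the 14 members, 10 passed this filter and 4 did not. Of the 10 tested, 0 were past the threshold in either direction, and 0 had an unadjusted p under 0.05. Of these 10, 5 had signal in a single library, and for these the standard error rose with the log2 change. Their limma unadjusted p ran from 0.210 (miR-467a-5p and miR-467b-5p pair) to 0.310 (miR-466g), so this fit could hardly call them. Over all 313 miRNAs, 4.47% were past the threshold higher and 2.88% lower, and 23 had an unadjusted p under 0.05. The smallest adjusted p of any miRNA was 0.513. With 2 libraries per group, the lowest p open to an exact two-sided permutation test is 0.333 for any member.

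By the criterion of more than 2-fold with no overlap between the groups, 1 of the 10 members was higher (miR-466i-5p) and 0 were lower. Of all miRNAs tested, 9.90% met that criterion higher and 9.27% lower, so the members' count was close to the background. The 5 tested single-library members could not meet the criterion, as their other heat stress library and the controls were at 0.

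Among the 10 members tested, the log2 change was above 0 for 6 and below 0 for 4, with a median of 1.52, against a median of 0.12 over all 313 miRNAs. Of the 10, 5 had signal in a single heat stress library and passed the filter only through it, so neither the count nor the median says anything of the families as a whole. With the control zeros of these 5 put at 3 reads and their heat stress zeros kept, the median was -0.29. With the zeros of both groups at 3 reads it was 0.48. These settings were chosen after seeing the data.

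Outside the families, the share past the threshold in either direction was 33.3% of the 9 tested entries from miR-690 to miR-721, 10.3% of the 87 numbered 1000 and above and 5.39% of the other 204, against 0 of 10 members. These shares were not tested against each other. Of the 10 members, 5 had signal in a single library and could hardly be called by this fit.

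The members together made up a small part of the miRNA signal. Their summed share was 0.522% (95% exact binomial interval 0.457% to 0.594%) in control library 1 and 0.368% (0.331% to 0.409%) in control library 2. It was 0.687% (0.637% to 0.739%) in heat stress library 1 and 0.477% (0.425% to 0.534%) in heat stress library 2. Heat stress library 2 lay between the control libraries, so the groups overlapped, and the 2 libraries of each group differed by more than counting error.

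In this sum, miR-669c-5p held 78.9% and 70.0% of the members' signal in control libraries 1 and 2 against 54.8% and 43.4% in heat stress libraries 1 and 2. It was the largest part in each library except heat stress library 2, where miR-466i-5p held 44.0%. Without it, the other members made up 0.110% and 0.111% of the signal in control libraries 1 and 2 against 0.310% and 0.270% in heat stress libraries 1 and 2. For these other members both heat stress libraries were above both control libraries, with a log2 ratio of the mean shares of 1.40, against 0.39 for all members. Of these sums, miR-466i-5p held 0.158% and 0.210% of the signal in the heat stress libraries and 0.103% and 0.0126% in the control libraries. In control library 2, miR-669h-5p was the larger part, at 0.0621%. Without miR-466i-5p as well, the rest held less of the signal in heat stress library 2 than in control library 2, so the groups overlapped. The 9 members above 0 in a single library could add only to the heat stress sums, and made up 0.110% of the signal in heat stress library 1 and 0.0410% in heat stress library 2.

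**Figure D3:**
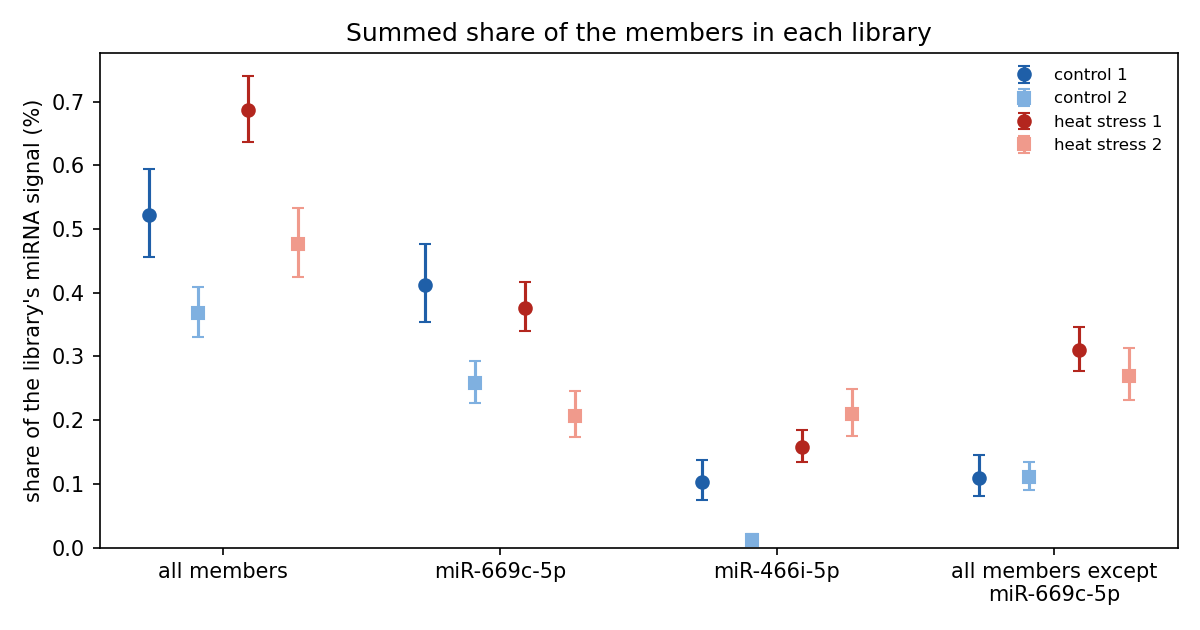
Share of each library's miRNA signal (y axis, percent) held by all members, miR-669c-5p, miR-466i-5p and all members except miR-669c-5p, with 95% exact binomial intervals that cover counting error only. The groups overlap for all members and for miR-669c-5p, and do not overlap for miR-466i-5p or for the members without miR-669c-5p.

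The members with all hairpins inside Sfmbt2 summed to 244 and 246 in control libraries 1 and 2 against 419 and 151 in heat stress libraries 1 and 2. The heat stress libraries lay on both sides of the control libraries. The members with a hairpin elsewhere summed to 65.0 and 28.2 in the control libraries, and to 129 and 151 in the heat stress libraries. That second sum was higher in both heat stress libraries, and miR-466i-5p was its most abundant member in each library except control library 2. Without miR-466i-5p the groups overlapped in that sum. The split is by hairpin name, with the pair of miR-466j and miR-669f-5p placed by miR-466j. How reads that match several hairpins were counted is not known.

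Values of markers of other cell types were set beside these sums, although the medium came from a single cell line. By the study's methods the cells were cultured with fetal bovine serum, and its part in these values was not tested. All 3 neuron markers had an entry, with a summed value of 549 and 540 in the control libraries and 465 and 385 in the heat stress libraries, of which miR-128-3p made up 531 and 540 in the control libraries and 465 and 382 in the heat stress libraries. The groups overlapped for miR-124-3p (4.06, 0, 0 and 3.00 in the same order), and miR-138-5p was above 0 in control library 1 alone, at 13.5. Of the 3 muscle markers, 2 had an entry, with sums of 39.3 and 108 in the control libraries and 22.1 and 27.0 in the heat stress libraries, and the groups overlapped for miR-206-3p. They did not overlap for miR-1a-3p, with 24.4 and 73.5 in the control libraries and 3.16 and 0 in the heat stress libraries. In each of these 2 lists, 1 marker was thus lower in both heat stress libraries than in both control libraries, and its part in the values of miR-466i-5p was not tested. The summed values of the neural precursor and astrocyte, red blood cell, hepatocyte, leukocyte and mesenchymal markers overlapped between the groups, and 0 of 2 oligodendrocyte markers had an entry. Within the mesenchymal list, miR-145a-5p was higher in both heat stress libraries (4.74 and 7.01) than in the control libraries (1.35 and 0), and its part was not tested either.

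RefSeq mature sequences of the GRCm38.p6 build were matched by name for 325 of the 389 miRNAs and for 3 of the 19 entries of the families. These 3 had 3 different seeds, and 0 of the 322 other miRNAs with a sequence had the seed of any of them. These 3 are shown because they were the only entries of the families with a sequence, with the seed (bases 2 to 8) in capitals. Whether other entries of the families have the same seeds was not tested, as their sequences were lacking.
miR-466i-3p: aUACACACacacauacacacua
miR-669n: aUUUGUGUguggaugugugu
miR-466j: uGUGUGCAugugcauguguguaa

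On the plus strand of GRCm38.p6, these lie at chr13:17747552-17747573 (miR-466i-3p), chr3:115979905-115979924 (miR-669n) and chr10:60960802-60960824 (miR-466j). The hairpin of miR-669n is in an intron of Slc30a7 on the opposite strand, and that of miR-466j overlaps no other annotated gene. The longest uninterrupted run of alternating U and G or A and C was 11 bases in miR-466i-3p, 8 in miR-669n and 7 in miR-466j, against a median of 3 among the 322 other miRNAs. A run of 7 or more bases was found in 6 of those 322 (1.86%). These 3 members were above 0 in heat stress library 2 alone, at 3.00, 1.00 and 2.00 in the same order. Their hairpins all lie outside Sfmbt2, and the runs of the more abundant members were not measured. U and G together made up 90.0% of miR-669n and 73.9% of miR-466j, whereas A and C made up 86.4% of miR-466i-3p. The best ungapped alignment gave 65.2% identity between miR-466j and miR-669n, 30.4% between miR-466j and miR-466i-3p and 18.2% between miR-669n and miR-466i-3p, against a median of 36.4% over pairs of the other miRNAs.

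The 6 miRNAs outside the families with the longest runs include 3 tied at 7 bases. The longest, 13 bases, was in miR-574-5p, which had 24.4 and 40.7 in the control libraries and 1.58 and 7.01 in the heat stress libraries. Both heat stress libraries were below both control libraries, opposite in direction to miR-466i-5p. Its limma log2 change was -2.84 with a standard error of 1.00, an unadjusted p of 0.0374 and an adjusted p of 0.612, past the threshold. It fell short of the threshold when control library 1, control library 2 or heat stress library 1 was left out (log2 changes of -3.20, -2.48 and -2.02). With a pseudocount of 0.1 it also fell short (log2 change of -3.19, limma unadjusted p of 0.0603). The change stayed over 2-fold in each of these fits.

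The other 5 had groups that overlapped. MiR-3082-5p, with a run of 10, had 1.35 in control library 1 and 0 in the others, and miR-672-5p, with a run of 8, had 0.790 in heat stress library 1 and 0 in the others. Of the 3 tied at 7, miR-294-3p had 14.2 in heat stress library 1 alone, and miR-574-3p had 27.4 in control library 2 and 20.0 in heat stress library 2 alone. MiR-206-3p, a muscle miRNA, had 14.9 and 34.4 in the control libraries and 19.0 and 27.0 in the heat stress libraries.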

How the data were processed

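By the study's methods, adapters were trimmed, reads that were of low quality or shorter than 17 nt were discarded, and the rest was aligned to a reference genome with Bowtie. The submitters' processing notes name FastQC and BWA. The genome build, the miRNA annotation release and the scaling method are not given in the sources used here. The authors deposited 1 normalized signal value per miRNA and library. Their own comparison columns, a log2 fold change and a p-value, were not used, nor were 4 value columns of a second table that repeats some of the same entries.

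The log2(value + 1) of each miRNA whose values averaged 1 or more was fitted on condition with limma (version 3.58.1, R version 4.3.3). P-values were adjusted by Benjamini-Hochberg over all miRNAs fitted. Fold changes on this scale understate the change of low values. The fit was tested on simulated data. Shares and intervals were computed in Python (version 3.11.15) with pandas (version 2.3.3), numpy (version 2.4.6) and scipy (version 1.17.1), and figures drawn with matplotlib (version 3.10.9). Alternatives were other pseudocounts, filters, scaling by library totals, a replicate block, limma's trended variance prior, a threshold without a p, and leaving out each library.

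Every member is given. Members above 0 in 2 or more libraries have all 4 values, and the 3 with the largest mean, and any past the threshold, have the test. Outside the families, miRNAs with a member's seed and the 5 with the longest alternating run, ties included, are named. Printed sequences are those of the most abundant member with a sequence in each seed group. The members and lists were chosen with earlier results of these data known. Marker lists were written from general knowledge.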

Additional observations from a re-analysis of the deposited data

How the results depend on the processing

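With 2 libraries per group, the spread of each miRNA rests on 2 differences, and leaving out a library assumes that the lone library of its group varies like the others. For a member at 0 in both remaining control libraries, such a fit has almost no spread of its own. Depth limits the 4 members with a mean value under 1, and how reads shared between members were counted limits all near-identical ones. The labels give groups the same replicate numbers but do not say that these mark a batch or culture. The deviations of same-numbered libraries from their group means had a Pearson r of -0.019 across 313 miRNAs, the same for each pair by construction. With 2 libraries per group, this value cannot show whether a batch or culture was shared.

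Over all alternatives, the number of members past the threshold lower was 0. The number higher, 0 of 10 as reported, was 2 with a pseudocount of 5 (miR-466i-5p and the miR-467a-5p and miR-467b-5p pair). It was 1 with limma's trended variance prior and 1 by more than 2-fold and no overlap. Over all 313 miRNAs, these 3 settings gave 11, 6 and 31 higher. Without heat stress library 2, the log2 changes of the 4 tested members with signal in heat stress library 1 alone ran from 2.71 to 5.95. Without heat stress library 1, that of the miR-466m-5p and miR-669m-5p pair was 4.39. Under the replicate block 0 members were higher (miR-466i-5p: limma unadjusted p = 0.125). Over all miRNAs, 14 were past the threshold higher and 9 lower. The count higher was 6 for miRNAs averaging 10 or more, 6 with limma's trended variance prior, 31 by no overlap and 10 to 39 with a library left out. The count lower was 2 with a pseudocount of 0.1, 4 under the replicate block, 29 by no overlap and 3 to 27 with a library left out. The cause of these moves was not tested.

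The median log2 change of the members tested was 1.52, and 0.65 to 2.67 with pseudocounts of 5 and 0.1, 0.90 without a filter, 0.00 to 2.21 with a library left out, and -0.29 with control zeros of members at 0 in both controls put at 3 reads (chosen after seeing the data). Scaling by library totals moved the median of all miRNAs by 0.10, from 0.12 to 0.02, and gave miR-466i-5p a log2 change of 2.26 (limma adjusted p = 0.690). Over the alternatives its log2 change ranged from 1.07 to 3.65 and its adjusted p from 0.140 to 0.872.

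With a library left out, 4 members changed sign: miR-669c-5p ranged from -0.72 to 0.47, miR-669h-5p from -3.12 to 2.44, miR-467c-5p from -2.26 to 0.88 and miR-466f-3p from -1.43 to 0.54. With all 4 libraries and zeros kept at 0, 0 changed sign. The log2 ratio of the summed shares was 0.39, 1.40 without miR-669c-5p, 0.53 with every entry counted, 0.54 without division by the library total, and 0.10 to 0.66 with a library left out.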
